A study of Mus musculus with 4 samples.

Results

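Bidirectional promoters are stretches of DNA from which 2 protein-coding genes are transcribed away from each other, 1 on each strand. Their accessibility was described here in bone mesenchymal stem cells (MSCs) of mice. They were taken as the autosomal ATAC-seq peaks that covered the gene starts of 2 protein-coding genes on opposite strands, transcribed away from each other and with starts at most 1000 bp apart in the GENCODE vM21 annotation of GRCm38. Of 117282 peaks, 683 met this rule, which was 0.595% of the 114745 autosomal peaks, and are called the members. The rule used positions and no measured values. In ATAC-seq a transposase cuts and tags open DNA, so the number of fragments at a site reports how open its chromatin is. The 4 libraries came from MSCs of mice of 2 ages, old (18 to 22 months, libraries old 1 and old 2) and young (3 to 5 months, libraries young 1 and young 2). All were grown at 2% O2, and neither age had a further treatment in the labels. The mice were of the C57BL/6N strain, and the cells were isolated from the endosteum of the hind limbs and sorted as Sca-1+, CD140a+, CD45- and Ter-119-. Nothing in the sample labels states that the 2 libraries of an age came from separate animals, so p-values measure the spread between libraries, which may be technical. These are cultured bulk populations, in which fewer cells with an open site and less opening per cell cannot be told apart.

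Head-to-head gene pairs are common in mammalian genomes, and a shared promoter of this kind usually lies in a CpG island, lacks a TATA box and drives housekeeping genes. DNA repair genes, mitochondrial genes and the replication-dependent histone genes, whose products are needed in balanced amounts, are textbook examples. Transcription in both directions starts at the borders of 1 nucleosome-depleted stretch, which is what an ATAC-seq peak over both starts marks.

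The sequences between the 2 starts show how little DNA such a pair shares. Printed here are 7 well-known pairs among the 683 with starts at most 300 bp apart, in the order Brca1/Nbr1 to Polr1c/Yipf3. Added to them after their values were seen are Peg3/Usp29, which had the lowest adjusted p of the 683 members in the age comparison, and Zranb3/R3hdm1, the pair with the next-highest value per kb among the members. Each stretch is the plus strand of GRCm38.p6, read 5′ to 3′ from the base after the minus-strand start to the base before the plus-strand start, so it lies upstream of both genes. Capitals mark any match, on either strand, to 1 of 10 words searched. These were CCGGAAG (ETS factors), CGCATGCG (NRF1), AAGATGGCG (YY1), CCAAT (NFY), GGGCGG (SP and KLF factors), TGACGTCA (CRE), CTACAATTC (ZNF143), TATAAA (the box bound by the protein Tbp), TGANTCA (AP-1) and CACGTG (E-box). No word contains another.
Brca1/Nbr1, chr11:101551956-101552148: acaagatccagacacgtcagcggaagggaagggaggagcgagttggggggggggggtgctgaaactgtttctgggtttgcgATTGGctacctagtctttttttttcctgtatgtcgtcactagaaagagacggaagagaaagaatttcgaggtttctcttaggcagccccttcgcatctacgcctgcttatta
Pms1/Ormdl1, chr1:53297019-53297094: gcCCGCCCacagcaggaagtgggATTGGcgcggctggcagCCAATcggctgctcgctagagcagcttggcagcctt
Mutyh/Toe1, chr4:116807641-116807722: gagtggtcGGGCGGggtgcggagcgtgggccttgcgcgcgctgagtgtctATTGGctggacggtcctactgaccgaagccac
Trp53/Wrap53, chr11:69580256-69580358: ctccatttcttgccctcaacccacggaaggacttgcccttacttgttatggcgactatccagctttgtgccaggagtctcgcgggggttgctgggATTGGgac
Mrps12/Sars2, chr7:28741821-28741991: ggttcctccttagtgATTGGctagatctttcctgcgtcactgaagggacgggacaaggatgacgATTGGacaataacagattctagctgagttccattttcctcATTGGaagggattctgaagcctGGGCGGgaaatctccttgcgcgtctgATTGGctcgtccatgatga
Tbp/Psmb1, chr17:15499752-15499887: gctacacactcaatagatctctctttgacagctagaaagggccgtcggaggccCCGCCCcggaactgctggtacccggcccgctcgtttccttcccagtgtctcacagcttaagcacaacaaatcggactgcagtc
Polr1c/Yipf3, chr17:46248055-46248079: tgccccgcctctgtccacgtccttc
Peg3/Usp29, chr7:6730432-6730577: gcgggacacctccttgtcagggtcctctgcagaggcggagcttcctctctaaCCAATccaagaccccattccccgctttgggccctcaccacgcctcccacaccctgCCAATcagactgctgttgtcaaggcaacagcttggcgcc
Zranb3/R3hdm1, chr1:128103048-128103300: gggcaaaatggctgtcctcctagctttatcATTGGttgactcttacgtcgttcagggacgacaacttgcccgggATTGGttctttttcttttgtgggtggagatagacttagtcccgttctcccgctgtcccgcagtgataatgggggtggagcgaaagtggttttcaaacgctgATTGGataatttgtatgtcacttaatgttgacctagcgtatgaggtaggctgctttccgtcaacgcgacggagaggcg

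The CCAAT word, in capitals on either strand, stood in 7 of these 9 stretches. It was found 4 times between Mrps12 and Sars2, 3 times between Zranb3 and R3hdm1 and 2 times between Pms1 and Ormdl1 and between Peg3 and Usp29. The GGGCGG word stood in 4 of them, between Pms1 and Ormdl1, Mutyh and Toe1, Mrps12 and Sars2, and Tbp and Psmb1. The 25 bases between Polr1c and Yipf3 held none of the 10 words. A match is a word in the sequence and not evidence of a bound factor.

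Nearly every annotated pair was open. The annotation held 735 such autosomal pairs, and 704 of them (95.8%) had 1 peak over both starts. No pair had its starts under 2 different peaks. Of the lone protein-coding starts, those with no other protein-coding start within 1000 bp, 11007 of 18126 (60.7%) lay under a peak. The 704 pairs fell into 683 peaks with 1389 genes, since 43 peaks covered 3 or more protein-coding starts. The starts of a pair were 127 bp apart at the median, and 581 pairs were at most 300 bp apart.

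The other pairs had no common peak. In 4 pairs a peak covered 1 start only. Milr1, Mpnd, Haghl and Asphd1 had a peak at their start, whereas their partners Pecam1, Stap2, Ccdc78 and Sez6l2 did not. Pecam1 encodes an adhesion molecule of endothelium. No peak covered either start in 27 pairs. Among these were the testis histone pair Hist1h2ba/Hist1h2aa, the kidney slit-diaphragm pair Kirrel2/Nphs1 and the liver enzyme pair Bhmt2/Dmgdh. Rps2, Trim28 and Ccnt1, which are used in most cells, were also in this group. A gene record starts at its outermost annotated transcript, and whether these genes have an open start elsewhere was not tested.

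The limit of 1000 bp cut a continuous range. Between 501 and 1000 bp, 60 of 68 pairs (88.2%) had 1 peak over both starts, with a median of 43.7 per kb. Between 1001 and 1500 bp, 26 of 44 pairs (59.1%) had 1, and the 24 such peaks that were not members had a median of 36.0 per kb. Close to the limit on its inner side were Btf3l4/Txndc12 (987 bp, 38.5 per kb) and Zfyve26/Rad51b (978 bp, 47.4 per kb). Just outside it were Gpr108/Trip10 (1009 bp, 73.7 per kb), Sgsm2/Tsr1 (1011 bp, 37.0 per kb) and Dirc2/Hspbap1 (1019 bp, 45.2 per kb). The rule also left out 445 head-to-head pairs whose starts overlapped, so that the transcripts first run through each other. Of the 24 well-known pairs looked up, 12 were members, 11 had overlapping starts (among them Hspd1/Hspe1, Surf1/Surf2 and Col4a1/Col4a2) and Pcna/Tmem230 was not divergent.

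The labelled cell type was checked by its markers. A peak covered the start of all 8 genes of an MSC and mesenchyme list (Pdgfra, Ly6a, Prrx1, Twist1, Cxcl12, Col1a1, Thy1 and Eng). Their summed deposited values were 1667 and 2671 in the old and 2251 and 2412 in the young libraries. Col1a1 had the highest values of the list (586 to 1108) and Eng the lowest (15.4 to 25.8). The marker values were not divided by peak width. Of the blood genes, Ptprc, which encodes CD45, had no peak at its start, and neither had Spi1, Cd3e, Itgam, Csf1r or Cd79a. Of 4 endothelial genes, Kdr alone had one (25.2 to 29.2), and Cdh5 and Pecam1 had none. Library totals, inferred from the steps between the deposited values, ran from 28259470 to 32559794 counts. Old 1 stood apart, with the lowest RLE factor (0.813, against 1.01 to 1.15 in the other 3 libraries).

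The 683 bidirectional promoters were among the most open peaks. The deposited value of a peak grows with its width, so levels are given per kb of peak. The median member had 32.3 per kb in old 1, 46.8 in old 2, 47.8 in young 1 and 49.9 in young 2. One-gene promoters, the 10452 autosomal peaks over 1 lone protein-coding start, had 22.8, 31.4, 32.7 and 33.6 per kb. Old 1 was the lowest library in both classes, and the other 3 lay close together. Members were higher in 4 of 4 libraries, by a ratio of 1.46 ± 0.036 (SD, n = 4). A two-sided exact permutation test that swapped the classes within libraries gave p = 0.125, the smallest p that 4 libraries allow. The median over all peaks was 11.3 to 15.9 per kb.

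**Figure D1:**
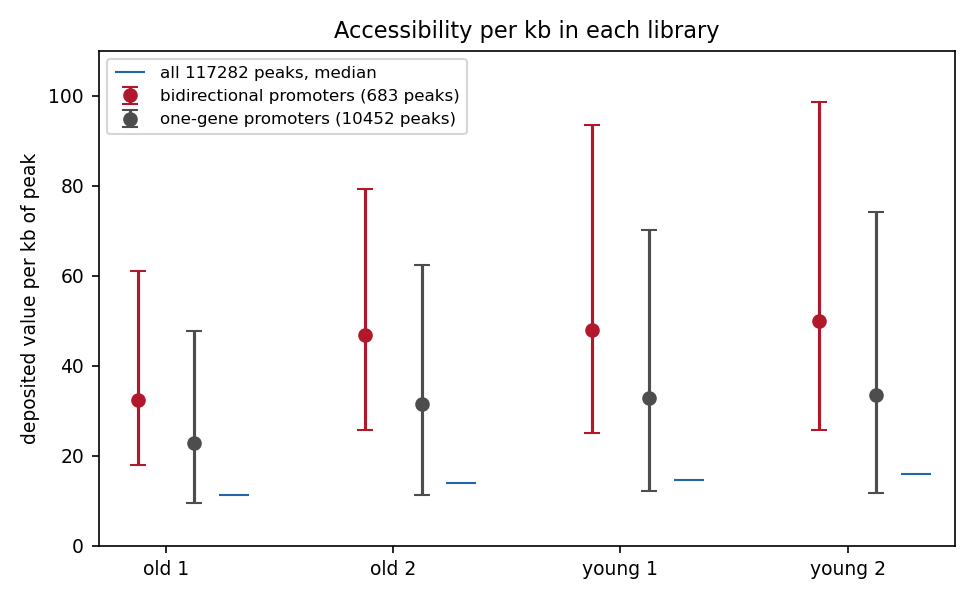
Deposited value per kb of peak (vertical axis) in each of the 4 libraries. Points are medians, bars run from the 10th to the 90th percentile over peaks, and blue dashes are medians of all 117282 peaks. The red points, at 32.3 to 49.9 per kb, lie above the grey points, at 22.8 to 33.6 per kb, in every library.

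The spread among members was narrow at its lower end. The 90th percentile of the mean value per kb was 83.2 and the 10th percentile 23.8 for members, a ratio of 3.50. For one-gene promoters the percentiles were 63.1 and 11.3, a ratio of 5.56. In all 4 libraries, 97.2% of the members exceeded the median peak per kb, against 78.5% of one-gene promoters. The lowest count of any member was 7 in old 1 and 13 to 18 in the other libraries, so all 683 members were above a floor of 3 counts. Members made up 1.25% of the autosomal peak length and held 2.42% to 2.62% of the autosomal signal.

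The higher level per kb was also found within bands of peak width. Members were 2900 bp wide at the median, one-gene promoters 2700 bp and all peaks 1200 bp. Among peaks of 1001 to 2000 bp, 112 members had a median of 38.2 per kb and 2663 one-gene promoters 26.9. Among peaks of 2001 to 3000 bp the medians were 48.4 (281 members) and 38.9 per kb. Among those of 3001 to 5000 bp they were 49.7 (194 members) and 32.9 per kb. The ratio lay between 1.24 and 1.53 in every library in the 4 width bands above 1000 bp, which held all but 2 members. Against 563 peaks over a protein-coding start and a divergent long noncoding RNA start, most of which (533) are one-gene promoters too, the members' ratio was smaller, at 1.14 ± 0.022 (SD, n = 4). It was above 1 in 4 of 4 libraries (exact permutation p = 0.125).

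The ends of the range were held by pairs of quite different kinds. Aasdhppt/Kbtbd3 had the highest value, 169.9 per kb (mean of 4 libraries); Aasdhppt encodes the enzyme that attaches the phosphopantetheine arm of acyl carrier proteins. Zranb3/R3hdm1 followed with 149.8 per kb, and Zranb3 is a helicase that remodels stalled replication forks. Usp5/Cdca3 had 148.0, Pdcd10/Serpini1 133.5 and Ccnb1ip1/Parp2 130.7 per kb. Usp5 trims free ubiquitin chains, and Parp2 marks DNA breaks with ADP-ribose. The lowest were Nr2e1/Ostm1 with 6.19 per kb, Rnf166/Ctu2 with 9.29 and Grik5/Zfp574 with 10.5. Nr2e1 is a nuclear receptor of neural stem cells, Ostm1 a partner of a lysosomal chloride transporter needed by osteoclasts, and Grik5 a subunit of neuronal kainate receptors. Rnf166/Ctu2 was a wide peak of 13000 bp, over which its signal was averaged. The widest member was the peak over Polr2l/Tspan4, 37200 bp with 5 protein-coding starts.

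Pairs with starts further apart were more open per kb. The 289 members with starts at most 100 bp apart had a median of 38.9 per kb, the 273 at 101 to 300 bp had 48.3 and the 121 at 301 to 1000 bp had 53.8. Across the 683 members, distance and value per kb had a Spearman correlation of 0.24, a description over peaks that share the same 4 libraries. The 60 members beyond 500 bp did not continue this order, at 43.7 per kb. The midpoint of a pair lay 262 bp from the centre of its peak at the median, and a lone start 391 bp.

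**Figure D2:**
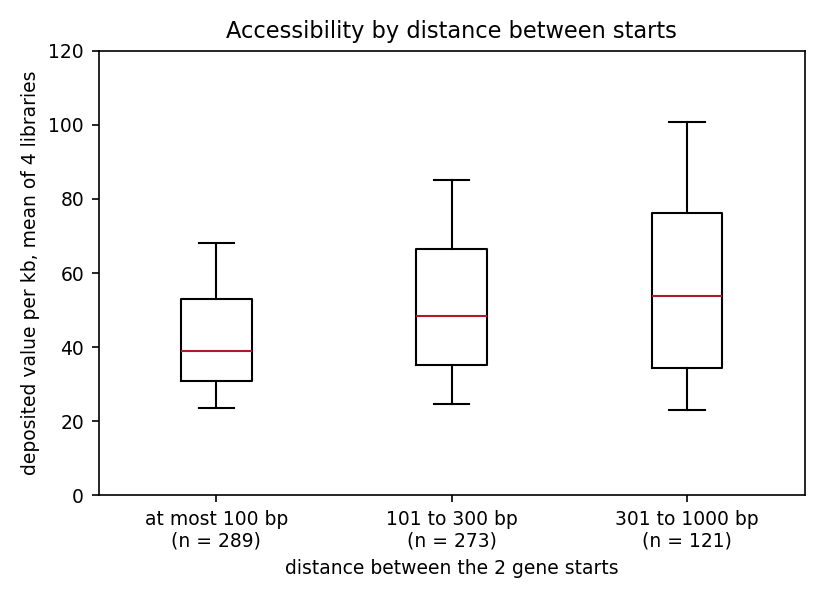
Deposited value per kb (mean of 4 libraries, vertical axis) of the members in 3 ranges of distance between their starts. Boxes span the quartiles, red lines are medians and whiskers reach the 10th and 90th percentiles. The medians are 38.9, 48.3 and 53.8 per kb, and the boxes overlap.

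Sequence around the starts differed between the classes. In windows from 250 bases before to 50 after each start, the median G+C content was 63.0% at the 1389 starts of members, 59.7% at one-gene promoters and 46.7% at 7119 lone starts under no peak. The observed-to-expected ratio of CpG was above 0.6, a usual limit for CpG islands, at 89.99% of member starts, 64.2% of one-gene starts, 5.42% of lone starts under no peak and 45.5% of all autosomal protein-coding starts. The windows of a close pair share bases, so the starts are not independent, and these shares are given without a test.

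Of the 10 words, the ETS word had the largest gap in percentage points between members and one-gene promoters. It stood in 28.7% of the windows of member starts, 13.5% of one-gene starts and 11.03% of all autosomal protein-coding starts. The YY1 word was found in 5.62%, 1.98% and 1.70% of these classes. The SP and KLF word was found in 70.8%, 60.8% and 43.7%, and the NFY word in 43.5%, 37.3% and 38.6%. For NRF1 the shares were 5.62%, 3.15% and 2.33%, for CRE 4.75%, 3.25% and 2.43%, for the E-box 11.7%, 9.80% and 7.82% and for ZNF143 0.720%, 0.603% and 0.481%. The TATA word (4.03%, 7.85% and 12.7%) and the AP-1 word (3.24%, 5.62% and 6.88%) were rarer at members than in the other classes.

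**Figure D3:**
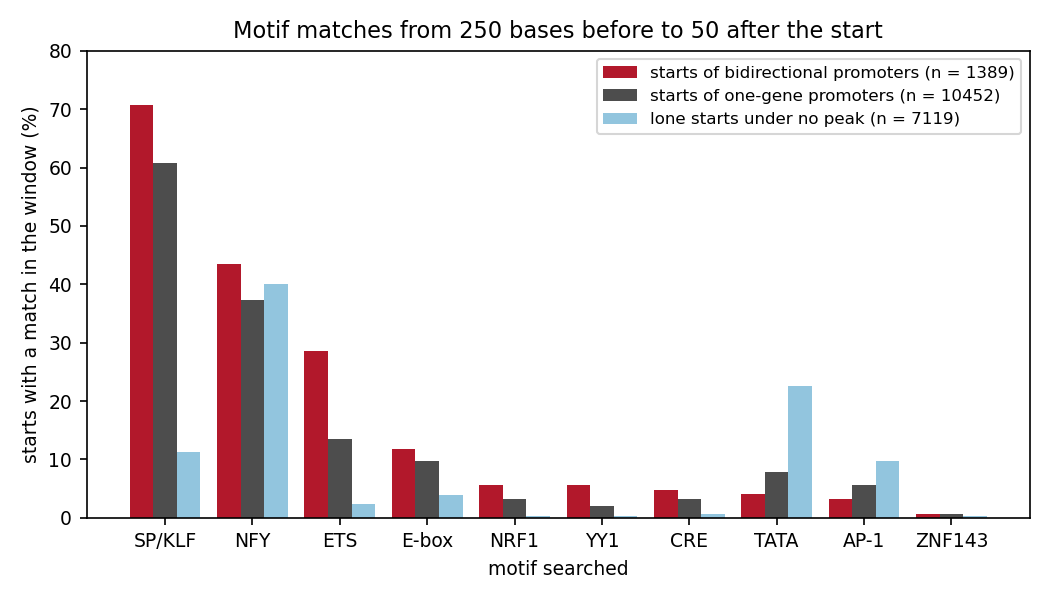
Share of starts (vertical axis, %) whose window of 300 bases holds each word, for the starts of members, of one-gene promoters and of lone genes under no peak. The ETS bar of the members reaches 28.7%, against 13.5% at one-gene promoters, and the TATA bar 4.03%, against 7.85%.

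Within the members, the presence of the NFY word went with a higher level. The 347 members with CCAAT in a window of their starts had a median of 51.4 per kb, and the 336 without it 37.6 per kb. The same split gave 34.8 and 28.1 per kb among one-gene promoters. Members with the word also had starts further apart (164 bp against 90.5 bp), and the part of this distance in the difference was not tested. For the ETS word the split was smaller among members. The 228 members with it had 45.8 per kb and the 455 without it 43.6 per kb. Among one-gene promoters it was larger than that of the NFY word, with 37.9 per kb with the ETS word and 28.8 per kb without it. Members with the ETS word had closer starts than those without it (90.5 bp against 141 bp at the median). The part of this distance in the ETS split was not tested either.

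To compare the ages, the members' deposited values were first read as they stand. Their median was 104.2 in old 1, 145.3 in old 2, 154.3 in young 1 and 161.5 in young 2, so that both old libraries lay below both young ones. The difference of the library medians on the log2(value + 1) scale was -0.36 (old minus young, exact permutation p = 0.33, the smallest p that 2 against 2 allow). A lower mean in old MSCs was found in 661 of the 683 members (96.8%), whose log2 fold changes had a median of -0.35. The same was true of 89.8% of one-gene promoters (median -0.32) and 74.6% of all peaks (median -0.27). The old libraries lay below the young ones without overlap in 394 members (57.7%) and above them in 2 (0.293%), where all peaks gave 43.5% and 7.56%. Old 1 was the further from the young libraries. Its median difference from the young libraries was -0.56 and -0.62, whereas that of old 2 was -0.085 and -0.13, with 62.5% and 66.9% of the members lower. Without old 1, the difference of the medians was -0.12 and 64.9% of the members were lower. Without old 2, it was -0.59.

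For single promoters, the values were divided by the RLE factors, the median ratio of each library to the geometric mean of the libraries, which sets the typical peak to no difference. On this scale, 0 of 683 members passed a false discovery rate of 0.01 with limma, adjusted over all 117282 peaks, where 0.0307% of all peaks were called lower and 0.0256% higher in old MSCs. At an adjusted p under 0.05, 1 member was lower and 0 higher, against 0.771% and 0.351% of all peaks. At an unadjusted p under 0.05 there were 40 members lower and 4 higher, 5.86% and 0.586% of the members against 8.87% and 7.49% of all peaks. limma-voom on the recovered counts called 1 member lower and 0 higher at 0.01. The share over all peaks in that fit is not given here. The calls rose when old 1 or old 2 was left out. Each of these fits had a single old library, so their counts are not given.

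The members' age differences were small and close together. On the RLE-scaled log2 scale their median was -0.064, and the quartiles spanned 0.22, against 0.29 for one-gene promoters and 0.53 for all peaks. No member differed by over 1 on the log2 scale, and 8 members (1.17%) differed by over 0.5, against 5.20% of one-gene promoters. The 2 old libraries lay below the 2 young ones without overlap in 215 members (31.5%) and above them in 48 (7.03%), where all peaks gave 24.2% and 23.2%. The members' median exceeded that of one-gene promoters by 0.57 ± 0.025 in old and 0.60 ± 0.016 in young libraries (log2 scale, SD, n = 2), a difference of -0.026 with an exact permutation p of 0.67. Between replicates of one age, members differed by 0.23 in old and 0.089 in young libraries at the median (absolute log2 difference). For one-gene promoters these differences were 0.24 and 0.12, and for all peaks 0.31 and 0.21. Replicates of the members were thus also closer together. The part of this in the narrow span of their age differences was not tested.

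The age difference followed the level of the promoter. When the members were split at their quartiles of value per kb, the median log2 fold change was 0.061 in the lowest band and, in the bands above it, -0.039, -0.084 and -0.15. One-gene promoters within the same limits of value per kb had medians of 0.047, -0.057, -0.11 and -0.17. Members thus lay above one-gene promoters of like level by 0.014 to 0.024, and this difference was not tested. In old 2 the difference from the young libraries went from 0.15 in the lowest to -0.15 in the highest band of members. In old 1 it went from -0.032 to -0.17. Over the 683 members, value per kb and log2 fold change had a Spearman correlation of -0.46, as a description over peaks of the same libraries.

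**Figure D4:**
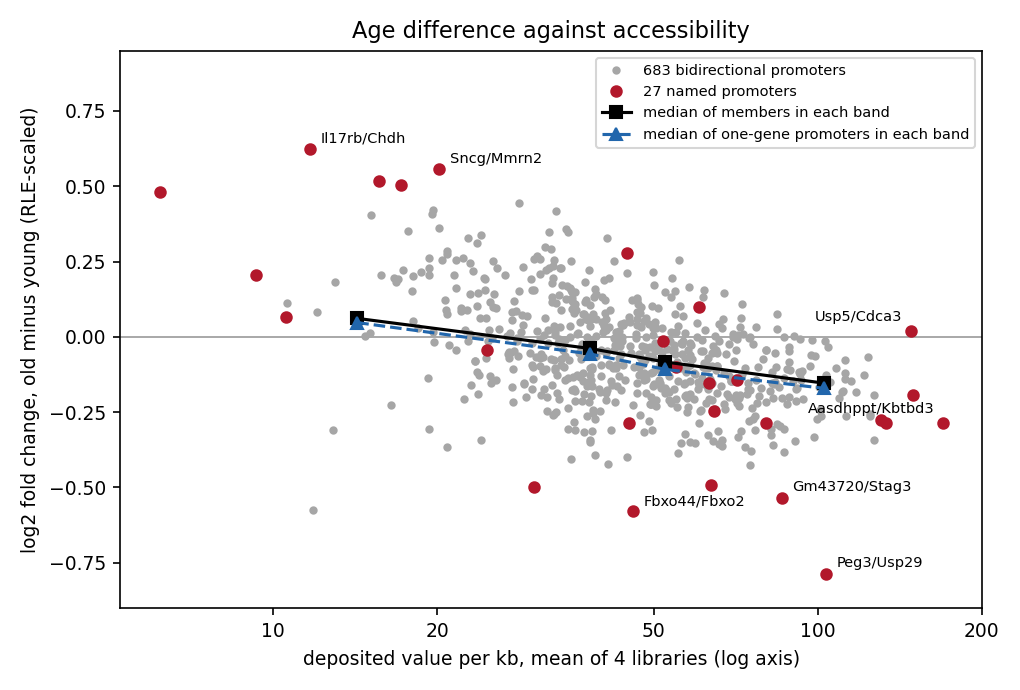
RLE-scaled log2 fold change, old minus young (vertical axis), against the deposited value per kb (log axis) of the 683 members, with 27 named members in red. Squares and triangles are the medians of members and one-gene promoters in 4 bands of value per kb, from 0.061 and 0.047 in the lowest to -0.15 and -0.17 in the highest band, and Peg3/Usp29 is the lowest point.

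Peg3/Usp29 had the largest age difference among the members. Peg3, a zinc finger protein, and Usp29 are imprinted genes that are expressed from the paternal copy, and the region of their shared promoter carries the methylation that marks the maternal one. Its peak (chr7:6726801-6730900) had an RLE-scaled value of 347.7 in old 1, 260.1 in old 2, 493.0 in young 1 and 547.3 in young 2. Both old libraries were below both young ones. The log2 fold change was -0.79 ± 0.14 (SE), with an adjusted p of 0.016 in limma over all peaks, which missed the threshold of 0.01. On values as deposited the adjusted p in limma was 0.0027. It was 0.020 with equal summed signal and 0.021 with quantile normalization. Without young 1 it was 0.18 and without young 2 it was 0.44, whereas it was under 0.01 without either old library, where a single old library was left. The log2 fold change was negative in each of these fits, from -0.57 without old 2 to -1.07 on values as deposited. In counts, the peak held 808 and 853 in the old and 1486 and 1844 in the young libraries.

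The other members with the largest non-overlapping decreases did not pass the test. Fbxo44/Fbxo2, a pair of F-box genes whose proteins recruit targets to a ubiquitin ligase, had 108.0 and 93.0 in old and 157.6 and 143.4 in young libraries (log2 fold change -0.58, adjusted p = 0.085 in limma). The peak over Stag3 and its partners Gpc2 and Gm43720 had 185.9 and 145.2 in old and 239.2 and 237.4 in young libraries (-0.53, adjusted p = 0.087 in limma). Stag3 is a meiotic cohesin subunit. Sptbn4/Blvrb, over a spectrin gene and biliverdin reductase B, had 228.5 and 206.1 against 314.1 and 296.8 (-0.49, adjusted p = 0.076 in limma). Ddx25/Pus3, over a testis RNA helicase and a pseudouridine synthase of tRNA, had 58.5 and 58.2 against 82.6 and 83.1 (-0.50, adjusted p = 0.18 in limma). In each of the 4 the old libraries lay below the young ones, which the choice by non-overlap had fixed.

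The members with the largest non-overlapping increases had low values per kb, and none passed the test. Sncg/Mmrn2, over gamma-synuclein and an extracellular matrix protein of endothelium, had 189.8 and 189.7 in old and 134.4 and 123.2 in young libraries. Its log2 fold change was 0.56 ± 0.15 (SE) with an adjusted p of 0.073 in limma. Il17rb/Chdh, over an interleukin receptor and choline dehydrogenase, had 33.6 and 38.1 against 27.9 and 18.7. Vps53/Fam57a had 27.5 and 43.3 against 24.5 and 23.1, and Lrrc46/Mrpl10 had 43.0 and 38.1 against 23.2 and 34.4. Nr2e1/Ostm1, the least open member, had 11.6 and 11.6 against 11.3 and 5.64, from 19 to 38 counts a library. The adjusted p of these 4 in limma was between 0.22 and 0.51. Their values per kb ranged from 6.19 to 17.2, below the 10th percentile of the members, and that of Sncg/Mmrn2 was 20.2.

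**Figure D5:**
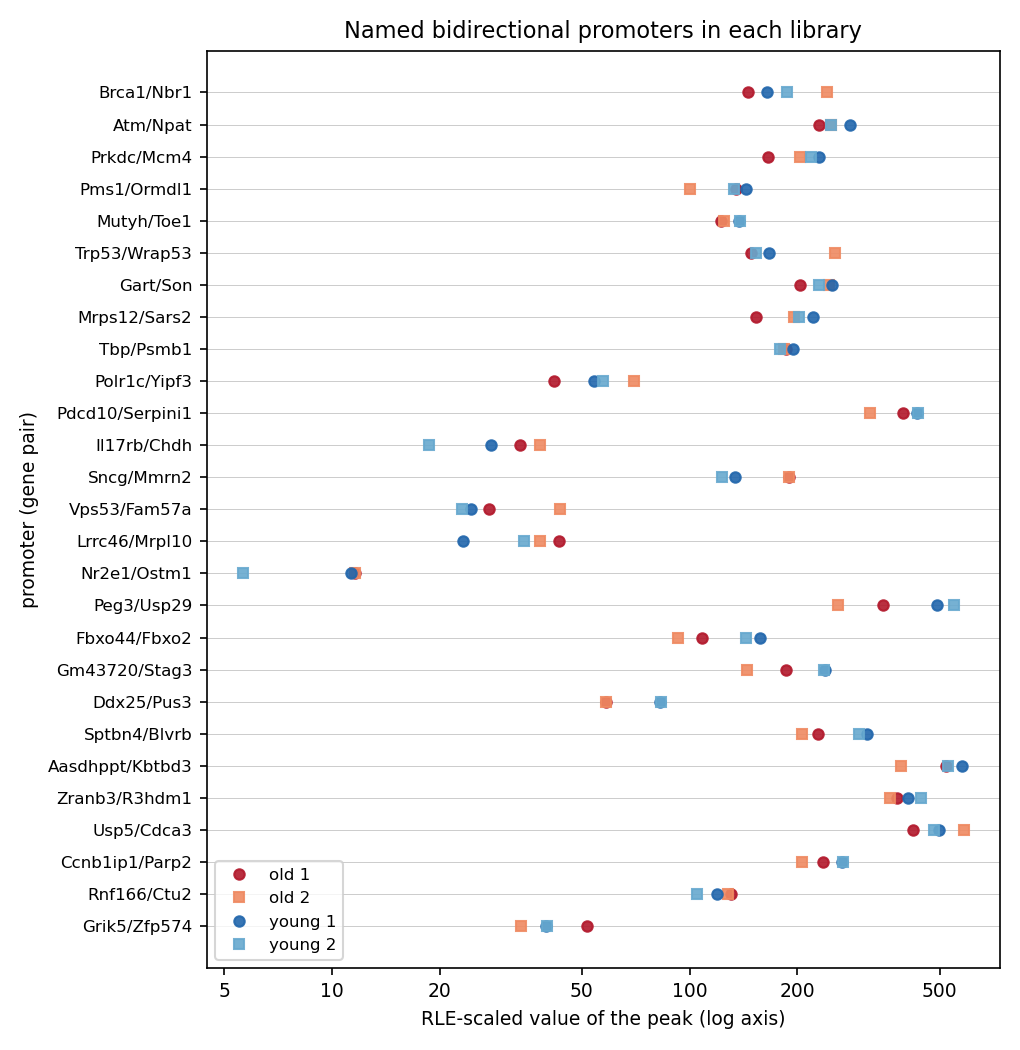
RLE-scaled value (log axis) of 27 named members in the 4 libraries, old in red and orange, young in blue. Peg3/Usp29 shows both old libraries (347.7 and 260.1) below both young ones (493.0 and 547.3), and Trp53/Wrap53 shows old 2 (254.9) apart from the other 3 (148.5 to 167.2).

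The classical DNA repair pairs were open in every library, and none passed the test. Atm/Npat, over the kinase that signals DNA double-strand breaks and an activator of histone genes, had 230.2 and 248.5 in old and 281.3 and 248.1 in young libraries, which overlapped. Prkdc/Mcm4, over the catalytic subunit of DNA-dependent protein kinase and a subunit of the replicative helicase, had 166.1 and 203.1 against 230.2 and 218.1, without overlap. Its log2 fold change was -0.29 ± 0.15 (SE, adjusted p = 0.35 in limma). Pms1/Ormdl1, with the mismatch repair gene Pms1, had 135.1 and 100.3 against 144.0 and 133.0. Mutyh/Toe1, with the glycosylase that removes adenine opposite oxidised guanine, had 122.6 and 125.0 against 137.7 and 138.3, without overlap (-0.15, adjusted p = 0.67 in limma).

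Brca1/Nbr1 and Trp53/Wrap53, both on chromosome 11, had a different pattern. Brca1, which acts in homologous recombination, and its neighbour Nbr1, an autophagy receptor, shared a value of 145.9 in old 1, 241.8 in old 2, 164.2 in young 1 and 187.0 in young 2. For Trp53, which encodes p53, and Wrap53, needed for telomerase assembly, the values were 148.5, 254.9, 167.2 and 153.4. In both, old 2 was the highest library, old 1 the lowest, and the ages overlapped. Other promoters of chromosome 11 moved with this library. The 61 members on it had a median RLE-scaled log2 difference of 0.16 and 0.26 between old 2 and the young libraries, against -0.023 and 0.031 for the 622 members on the other autosomes. For old 1 the values were -0.17 and -0.13 on chromosome 11 and -0.16 and -0.12 elsewhere. One-gene promoters of chromosome 11 had 0.15 and 0.22 in old 2. The part of this shift in the values of the 2 pairs was not tested.

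None of the remaining well-known pairs passed the test, and Mrps12/Sars2 and Pdcd10/Serpini1 were lower in old MSCs without overlap. Gart/Son, over a purine synthesis enzyme and a splicing cofactor, had 203.5 and 245.5 in old and 249.5 and 230.6 in young libraries. Mrps12/Sars2, over a mitochondrial ribosomal protein and the mitochondrial seryl-tRNA synthetase, had 153.2 and 196.4 against 221.9 and 202.4 (-0.29, adjusted p = 0.37 in limma). Tbp/Psmb1, over the TATA-binding protein and a proteasome subunit, had 186.3 and 184.2 against 195.1 and 179.0. Polr1c/Yipf3, with a subunit shared by RNA polymerases I and III, had 41.7 and 69.8 against 54.1 and 57.3. Pdcd10/Serpini1, over an adaptor protein of vascular stability and neuroserpin, had 394.6 and 319.6 against 431.2 and 435.7 (-0.29, adjusted p = 0.28 in limma). Both log2 fold changes lay below the 10th percentile of the members (-0.26).

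Gene groups were unequally placed at bidirectional promoters. Of all 20780 autosomal protein-coding symbols, 1386 (6.67%) were at members. The share was 31.3% for replication-dependent histone genes (21 of 67), 28.9% for DNA replication and repair genes (37 of 128), 21.0% for mitochondrial genes (46 of 219) and 21.0% for RNA polymerase and splicing genes (29 of 138). It was 11.7% for ubiquitin and proteasome genes (12 of 103), 10.9% for ribosomal and translation genes (21 of 192) and 9.68% for genes of acetyl-CoA supply and histone acetylation (3 of 31). Zinc finger genes (26 of 459, 5.66%) were near the overall share, and developmental transcription factors (3 of 174, 1.72%) were below it. Of the collagen list, 3 of 43 symbols were at members, of which Col4a3bp matched by its symbol alone, since it encodes a ceramide transporter.

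The 36 member peaks at DNA replication and repair genes were open, with a median of 50.6 per kb, and 0 of them were called by limma in either direction. All 36 had a lower mean in old MSCs on the deposited scale, where 96.8% of all members and 74.6% of all peaks were lower, and 29 of the 36 after RLE scaling. After RLE scaling their median log2 fold change was -0.14, beside -0.064 over all members and 0.0011 over all peaks, and 16 (44.4%) were lower and 1 (2.78%) higher without overlap. Over all members these shares were 31.5% and 7.03%, and over all peaks 24.2% and 23.2%. One-gene promoters of the same list had a median of -0.12. Among the highest of these members per kb were Ccnb1ip1/Parp2 (130.7) and Hscb/Chek2 (92.8), where Chek2 is a checkpoint kinase. Ccnb1ip1/Parp2 had RLE-scaled values of 236.7 and 206.8 in old and 267.0 and 268.6 in young libraries, without overlap.

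At mitochondrial genes, 45 member peaks had a median of 40.9 per kb and a median RLE-scaled log2 fold change of -0.022. Of these, 10 (22.2%) were lower and 5 (11.1%) higher in old MSCs without overlap, where all peaks gave 24.2% and 23.2%, and 0 were called by limma. The most open were Mrpl41/Pnpla7 (100.7 per kb), Mrpl40/Hira (80.2) and Mrpl32/Psma2 (75.9), each over a protein of the large mitochondrial ribosomal subunit. Histone pairs shared 9 peaks with a median of 44.2 per kb, led by Hist1h2an/Hist1h2bp (82.3), Hist1h2bh/Hist1h3f (76.1) and Hist1h2ah/Hist1h2bk (63.8). Their log2 fold changes ran from -0.31 to 0.22, and 1 peak of the 9 (11.1%) was lower and 1 higher without overlap, against the same 24.2% and 23.2% of all peaks. Near-identical histone genes lie in clusters, and reads that could map to several of them may have been lost or split.

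Ribosomal and translation genes had the lowest median of the larger groups, 30.0 per kb over 21 members, below that of one-gene promoters of the same list (38.4 per kb). Txndc9/Eif5b (71.0), Rpl36al/Mgat2 (70.1) and Atp6v1d/Eif2s1 (68.6) were the most open. The 21 members had a median log2 fold change of 0.029, with 5 (23.8%) lower and 2 (9.52%) higher without overlap, beside 24.2% and 23.2% of all peaks, which is also the background for the next 3 groups. RNA polymerase and splicing genes had 29 members with a median of 43.3 per kb and -0.065 (9 lower, 31.0%, and 0 higher without overlap), with Rita1/Ddx54 (109.5) and Qpctl/Snrpd2 (82.7) among the most open. Ubiquitin and proteasome genes had 12 members at 38.8 per kb and -0.017 (3 lower, 25%, and 1 higher, 8.33%), led by Psme2/Rnf31 (104.3). Zinc finger genes had 22 members at 57.4 per kb and -0.083 (10 lower, 45.5%, and 2 higher, 9.09%), led by Zfp654/Cggbp1 (117.7) and Zfp91/Lpxn (114.9). limma called 0 members of these 4 groups in either direction.

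The smallest groups held 2 or 3 members each, and limma called 0 members of any of the 10 lists. Sirt1/Dnajc12, with the NAD-dependent deacetylase Sirt1, had RLE-scaled values of 83.9 and 71.4 in old and 86.6 and 93.5 in young libraries. Hdac3/Rell2, with a histone deacetylase, had 176.9 and 136.3 against 195.1 and 183.7. Both were lower in old MSCs without overlap (adjusted p = 0.60 and 0.39 in limma). The list of acetyl-CoA supply and histone acetylation had 3 members, too few to compare as a share. Over all members 31.5% were lower without overlap, and over all peaks 24.2%. Sirt6/Ankrd24 had 138.6 and 140.0 against 151.6 and 130.0, which overlapped. Of the developmental transcription factors, Foxa3/Sympk had 49.4, Rhno1/Foxm1 28.5 and Sox6/1110004F10Rik 15.8 per kb, and 0 of the 3 differed without overlap. Col4a4/Col4a3, over 2 chains of the collagen of basement membranes, was the narrowest member at 400 bp. Its values of 3.01 and 3.96 against 5.97 and 5.34 came from 7, 13, 18 and 18 counts, and its adjusted p was 0.49 in limma.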

How the data were processed

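ATAC-seq values of 2 old and 2 young samples of mouse bone MSCs were analysed. The deposited score of a peak is named RPKM by the authors. From the steps between the values, it was read as counts in the peak per 10000000 counts of the library, not divided by peak length. All 117282 peaks had 1 such value per sample, and 100% of the values were whole counts within 0.1. The totals, inferred from the same steps, were 28600303 (old 1), 32559794 (old 2), 28259470 (young 1) and 29413803 (young 2) counts. Per the labels, reads were mapped to mm10 with bowtie2 and freed of duplicates with Picard. The paper describes chromstaR peaks (bins of 300 bp, step of 100 bp) for its other ATAC-seq libraries. Floors cover counting error only.

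Gene starts were the outermost 5′ ends of GENCODE vM21 gene records, and sequence was read from GRCm38.p6, the assembly that mm10 names. Peaks were compared with limma 3.58.1 in R 4.3.3 (trend and robust moderation) on log2(value + 1) after division by RLE factors, with Benjamini-Hochberg adjustment over all peaks and a false discovery rate of 0.01. On simulated data of all 117282 peaks, this recovered 60 of 100 peaks changed by 1 and 93 of 100 changed by 2 on the log2 scale, with 0 false calls. The simulated spread was a single value for every peak and both ages. It was taken from the 2 young libraries at peaks above the upper quartile of mean value. These rates hold for the simulated spread only. In the measured data, replicates differed by 0.31 in old and 0.21 in young libraries (median absolute log2 difference, all peaks, RLE-scaled). Whether the rates hold at the larger spread of the old libraries, or at the spread of peaks with lower values, was not tested. Library medians were compared with two-sided exact permutation tests. The paired test of the level per kb was added after the data were seen. Python 3.11.15, numpy 2.4.6, pandas 2.3.3, scipy 1.17.1 and matplotlib 3.10.9 were used.

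The members, the 24 well-known pairs, the 10 gene lists and the markers were chosen with earlier results of these data known. Named members are the well-known pairs that met the rule, any member past the threshold, the 5 with the largest non-overlapping difference in each direction (mean value at or above the lower quartile of all peaks), and the 5 highest and 3 lowest per kb. Gene lists were matched by symbol, so the kinase gene Rps6kb1 counts among the ribosomal and translation genes, and up to 3 members of each are named, highest per kb first. Some items are not reported here. As alternatives, the scaling, the pseudocount (0.1 or 5), the filter, the moderation, a replicate block, limma-voom and the limits on the pairs were varied, and each library was left out in turn.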

Additional observations from a re-analysis of the deposited data

How the results depend on the processing

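No member passed the false discovery rate of 0.01 under RLE scaling, and this count stayed at 0 in each direction with equal summed signal, quantile normalization, either pseudocount, the filter on low values, plain moderation and pairs with starts at most 300 bp apart. It was 1 lower and 0 higher on values as deposited, with limma-voom on recovered counts and at a false discovery rate of 0.05. With the replicate block it was also 1 lower and 0 higher. Same-numbered samples had a correlation of deviations of -0.099 over all peaks and -0.16 over members, so the numbers were not shown to pair the samples; the crossed replicate block, added after seeing the data, gave 1 lower. Without single replicates the counts ran from 0 to 45 lower and 0 to 28 higher, with the lone sample of an age assumed to vary like the others; both highest counts came without old 1.

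The share of members lower in old MSCs was 65.0% under RLE scaling, 60.3% with equal summed signal and 55.1% with quantile normalization, and ran from 64.9% to 99.1% without single replicates. The difference of the medians kept its sign in all alternatives, and was -0.070 under RLE scaling, -0.049 with equal summed signal, -0.024 with quantile normalization and -0.12 to -0.59 without single replicates. The ratio of level per kb to one-gene promoters was 1.43 for starts at most 300 bp apart, 1.43 with the pairs whose starts overlap, and 1.41 in old 1 by itself, and 1.46 to 1.49 in the other alternatives.

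Some named members changed sign. Not all of them had small differences for this set. With all 4 libraries and RLE scaling, Trp53/Wrap53 had 0.28 and Rnf166/Ctu2 0.21, above the 90th percentile of the members (0.18). On values as deposited, Brca1/Nbr1 had -0.19, Trp53/Wrap53 -0.0081, Usp5/Cdca3 -0.27, Rnf166/Ctu2 -0.080 and Grik5/Zfp574 -0.22. Tbp/Psmb1 had 0.0082 with equal summed signal and 0.035 with quantile normalization. Without single replicates, Brca1/Nbr1 ran from -0.25 to 0.46, Trp53/Wrap53 from -0.099 to 0.66, Gart/Son from -0.23 to 0.031, Tbp/Psmb1 from -0.077 to 0.045, Polr1c/Yipf3 from -0.40 to 0.32, Usp5/Cdca3 from -0.21 to 0.25 and Grik5/Zfp574 from -0.24 to 0.37. The cause of these changes was not tested. With 2 libraries per age, exact tests cannot go below p = 0.33.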

Other observations

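Divergent protein-coding pairs on chromosome X had been left out of the members, and 13 peaks covered such a pair. All 13 had a lower mean in old MSCs on values as deposited, with a median log2 fold change of -0.48. On that scale 96.1% of one-gene promoters of chromosome X (median -0.43) and 74.6% of all peaks (median -0.27) were lower. After RLE scaling the median of the 13 pairs was -0.20. Of the 13, 8 had old libraries below the young ones without overlap, where all peaks gave 24.2%. One-gene promoters of chromosome X had a median of -0.15 on this scale, and 43.4% of 357 were lower without overlap. Psmd10/Atg4a, over a proteasome chaperone and an autophagy protease, had RLE-scaled values of 99.4 and 81.7 in old and 111.1 and 129.1 in young libraries. Gla/Hnrnph2, with the lysosomal alpha-galactosidase, had 104.1 and 110.7 against 118.1 and 162.6. The lowest adjusted p of the 13 was 0.26 in limma, so none passed the threshold.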
